A study of Mus musculus with 8 samples.

Results

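Transcripts of 9 mouse genes of type 1 immunity were followed in intraepithelial lymphocytes cultured with or without osteopontin. They were chosen by symbol and comprise the cytokine genes Ifng, Tnf, Lta, Ltb and Csf2, the receptor genes Il12rb2, Il18r1 and Il18rap, and the transcription factor gene Stat4, that is 9 of the 52661 genes in the deposited tables. Intraepithelial lymphocytes are immune cells lodged among the epithelial cells that line the gut. Those of C57BL/6 mice were sorted for the leukocyte protein CD45 and held for 24 h at 37 °C in RPMI medium with 10% serum. For 4 libraries, named 1, 2, A and B, the medium held osteopontin at 2 µg/ml, and for the 4 null libraries of the same names it did not. Osteopontin is a phosphoprotein of the extracellular space whose receptors include CD44 and integrins, and the question was how its presence altered the expression profile of these cells. No label ties the libraries to separate animals or cultures, so each p-value reflects only the variation among these 8 libraries, and that variation may be technical.

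Interleukin-12 acts on T and natural killer cells through a receptor of the chains IL12RB1 and IL12RB2, which carry the kinases TYK2 and JAK2, and these activate STAT4. Interleukin-18 acts through IL18R1 and the accessory chain IL18RAP by way of MyD88 and IRAK kinases. The pathways act together on Ifng, whose product interferon-gamma activates macrophages and induces antigen presentation and chemokine genes in many cells. Tumour necrosis factor and the lymphotoxins are related ligands, Csf2 encodes the myeloid growth factor GM-CSF, and messages of several of these cytokines carry AU-rich elements in the 3′ untranslated region that speed their decay.

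The libraries held 49108969 to 71399847 estimated reads, and 3 reads, the floor that counting alone sets, corresponded to 0.0420 to 0.0611 CPM (reads scaled to a common library size). The CD45 gene Ptprc stood at 2096 ± 50.8 CPM with osteopontin and 1982 ± 74.3 CPM in null libraries (SD, n = 4 each). The 11 T cell markers, none of them at 0, summed to 4801 to 5134 CPM with osteopontin and 4551 to 5166 CPM in null libraries. The 9 markers of natural killer cells and group 1 innate lymphoid cells summed to 560.7 to 905.2 CPM with osteopontin and 693.7 to 966.4 CPM in null libraries, and Klra8 alone among them was at 0 in some libraries. The library named B stood apart in each group: it was the highest or the lowest of its group for 69.0% of all tested genes in the osteopontin group and 68.4% in the null group, against 39.3% to 51.8% for the other 6 libraries. Markers of cells that the sort should remove also differed between single libraries. The 7 fibroblast markers summed to 6.88 to 24.8 CPM with osteopontin and, among null libraries, to 304.2 and 162.9 CPM in 1 and A and 10.8 and 6.51 CPM in 2 and B. The 10 enterocyte markers summed to 88.3 CPM in osteopontin B and 80.3 CPM in null B, and to 40.2 to 48.0 CPM elsewhere. Epcam, which differed little, was most of the sum in the other 6 libraries (37.8 to 43.6 CPM, against 48.3 and 37.9 CPM in osteopontin B and null B). Other markers differed more: Fabp2 stood at 10.3 and 14.3 CPM in osteopontin B and null B, and at 0.871 to 2.25 CPM elsewhere. With 4 libraries a group the smallest two-sided p of an exact permutation test is 0.0286, or 0.286 for a single list after adjustment over the 10, so the marker sums are given as values only. In bulk RNA, fewer cells of a type and less RNA per cell cannot be told apart.

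Osteopontin libraries differed from null libraries in none of the 9 genes by the test used. All 9 were among the 18631 genes tested by edgeR's quasi-likelihood test, which called 0 of the 9 and 0% of all genes at a Benjamini-Hochberg adjusted p under 0.05 (0 by limma voom, and 0.262% of genes but 0 of the 9 by DESeq2, which gave Csf2 no adjusted p). At an unadjusted p under 0.05 it found 0 of the 9 against 3.93% of all genes. Voom found 1 of the 9, which was Ifng, against 5.32% of all genes, and DESeq2 found 0 against 4.71%. The fitted level was higher for 5 and lower for 4 of the 9, with a median log2 fold change of 0.09, against 50.1% higher and a median of 0.00 over all genes tested. The 5 genes with higher fitted levels were Ifng, Csf2, Il12rb2, Il18r1 and Stat4, and the 4 with lower ones were Tnf, Lta, Ltb and Il18rap. The groups of libraries did not overlap for 1 of the 9, Ifng, against 3.47% of all genes in either direction and 1.89% with higher levels under osteopontin.

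The genes differed widely in level, and some neighbours in the order could not be told apart. As TPM on protein-coding transcripts, an abundance scale that allows for transcript length, the medians over all 8 libraries were 625.4 for Ltb, 115.2 for Stat4, 25.7 for Il18r1, 13.7 for Il12rb2, 11.5 for Il18rap, 4.30 for Lta, 2.99 for Ifng, 2.45 for Tnf and 0.531 for Csf2. Ltb lay above Stat4, Stat4 above Il18r1, Il18r1 above Il12rb2 and Il18rap above Lta in all 8 libraries, without overlap of their ranges. Il12rb2 and Il18rap overlapped, with Il12rb2 the higher in 5 of 8 libraries. Lta, Ifng, Tnf and Csf2 also overlapped, each with the next in that order. The 3 receptor genes and Stat4 therefore lay above Lta, Ifng, Tnf and Csf2 in every library.

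**Figure D1:**
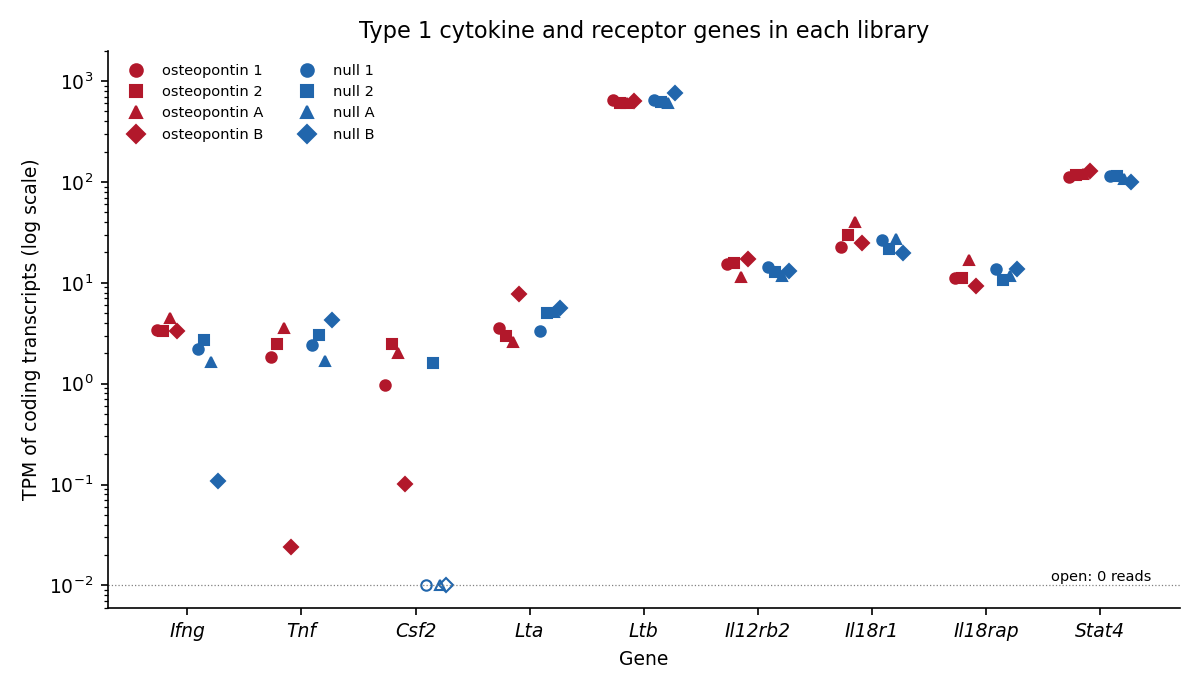
Level of each of the 9 genes in each library, as TPM on protein-coding transcripts on a log scale, with osteopontin libraries (red) left of null libraries (blue) and the symbol shape giving the library name. Ltb lies at 601.5 to 768.6 TPM in every library, while Ifng in null B (0.108 TPM) and Tnf in osteopontin B (0.0239 TPM) lie far below their other libraries, and open symbols mark the 3 null libraries with 0 Csf2 reads.

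Regulatory sequences of 2 kinds, promoters and the AU-rich part of the message, are shown for the low cytokine genes because these had the most uneven levels. The first are the 250 bases upstream of the start sites of Ifng and Tnf (RefSeq, GRCm38.p6), with capitals for matches, on either strand, to a TATA box (TATAAA), the NFAT core (GGAAA) and the STAT half-site pair (TTCNNNGAA).
Ifng (chr10:118440796-118441045, plus strand): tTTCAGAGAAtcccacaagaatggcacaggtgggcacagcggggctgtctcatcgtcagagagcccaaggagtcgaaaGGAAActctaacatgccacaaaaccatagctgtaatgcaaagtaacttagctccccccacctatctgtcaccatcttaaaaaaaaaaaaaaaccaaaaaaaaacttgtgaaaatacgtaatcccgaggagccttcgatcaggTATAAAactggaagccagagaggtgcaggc
Tnf (chr17:35202008-35202257, minus strand): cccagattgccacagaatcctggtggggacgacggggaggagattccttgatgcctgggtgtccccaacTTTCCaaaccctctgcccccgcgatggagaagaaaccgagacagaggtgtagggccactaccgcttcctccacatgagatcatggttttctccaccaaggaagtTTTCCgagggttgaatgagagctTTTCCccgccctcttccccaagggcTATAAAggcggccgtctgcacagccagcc
Both windows hold TATAAA, 30 bases upstream of the start in Ifng and 29 in Tnf, and 12.4% of 32807 windows of this length in the reference hold it anywhere. The Tnf window holds 3 matches to GGAAA, on the opposite strand, and the Ifng window 1 (55.6% of all windows hold at least 1). The Ifng window alone of the pair holds TTCNNNGAA, at 249 bases upstream (7.02% of all windows). Neither window matched TGANTCA (AP-1, in 6.75% of all windows) or the consensus of NF-kB (in 1.41%), whose matches can overlap an NFAT core.

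The second are the 30 bases of the 3′ untranslated region with the most ATTTA pentamers in the messages of Ifng, Tnf, Lta and Csf2 (GRCm38, GENCODE M21 annotation), with the pentamers in capitals.
Ifng (chr10:118445330-118445359, plus strand): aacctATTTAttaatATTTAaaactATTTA
Tnf (chr17:35199679-35199708, minus strand): attATTTAttATTTATTTAttATTTATTTA
Lta (chr17:35203408-35203437, minus strand): tATTTAtggagagaaaagttaagttATTTA
Csf2 (chr11:54247329-54247358, minus strand): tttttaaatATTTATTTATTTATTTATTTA
Over the whole region the count was 9 in 317 bases for Csf2, 8 in 764 for Tnf, 6 in 631 for Ifng and 3 in 572 for Lta, with overlapping matches counted, while Il18rap had 4 in 2617 bases, Il18r1 and Stat4 had 1 each, and Ltb and Il12rb2 had 0. These counts, and those of the nonamer below, are for the coding transcript with the most reads of each gene. A second Il12rb2 transcript, with 35.4% of the gene's reads, ends 700 bases further downstream and was not searched. At least 5 pentamers were found in 15.3% of 44761 coding transcripts with such a region. The nonamer TTATTTATT occurred 5 times in Tnf, 4 times in Csf2 and 1 time in Lta (5.82% of transcripts hold it), and 0 times in the other 6. The 3 genes with 5 or more pentamers, Csf2, Tnf and Ifng, were the 3 with the lowest median TPM. Their ranges overlapped with that of Lta, which has 3 pentamers and lay above Ifng in 6 of 8 libraries. Whether the pentamers have a part in these levels was not tested.

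Ifng (ENSMUSG00000055170.4, chr10:118441046-118445892, plus strand on GRCm38), the gene of interferon-gamma, had a higher fitted level with osteopontin that did not pass the test. It stood at 2.37, 3.30, 3.17 and 3.13 CPM in osteopontin libraries 1, 2, A and B, against 1.56, 2.34, 1.34 and 0.0767 CPM in the null libraries of those names. No null library reached the lowest osteopontin library, but osteopontin 1 and null 2 were nearly level, and null B was far below the rest. These levels rest on 169, 224, 185 and 154 reads with osteopontin and on 90, 149, 96 and 5 reads in null libraries. Counting alone puts osteopontin 1 between 2.03 and 2.76 CPM and null 2 between 1.98 and 2.75 CPM (exact Poisson 95% intervals, which cover counting error only), so these neighbours could not be separated at this depth. The log2 fold change was 1.17 (SE 0.70, 95% interval -0.33 to 2.67, edgeR adjusted p = 1.00 when rounded), and voom gave an unadjusted p of 0.0244 and an adjusted p of 0.906. Without null B the log2 fold change was 0.77. Reads were also assigned to a second Ifng transcript of 378 bases with a retained intron. It held 0%, 28.0%, 0% and 28.5% of the gene's reads in osteopontin 1, 2, A and B, against 0%, 16.9%, 13.0% and 0% in the null libraries. Being short, it raised the TPM of the whole gene, and on that scale the groups overlapped: 3.40 to 10.2 TPM with osteopontin and 0.108 to 5.63 TPM in null libraries. On the protein-coding transcript alone they did not, with 3.29 to 4.48 TPM with osteopontin and 0.108 to 2.69 TPM in null libraries.

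Tnf (ENSMUSG00000024401.14, chr17:35199381-35202007, minus strand), the gene of tumour necrosis factor, showed no shared shift. It stood at 1.84, 2.53, 3.50 and 0.0203 CPM in osteopontin 1, 2, A and B, against 2.11, 3.13, 1.70 and 4.32 CPM in the null libraries. Osteopontin B held 1 read and was by far the lowest of the 8, null B with 282 reads was the highest, and the other 6 libraries, of 122 to 204 reads, interleaved. The log2 fold change was -0.51 (SE 0.87, 95% interval -2.41 to 1.39, edgeR adjusted p = 1.00) and was 0.18 without both B libraries. The B libraries thus stood at opposite ends for Tnf, and for Ifng null B alone stood apart. Of the annotated coding forms, one of 235 codons and one of 219 codons that lacks an exon, the shorter held all 122 reads of null 1 and the single read of osteopontin B, and 0% to 16.5% in the other 6 libraries.

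Csf2 (ENSMUSG00000018916.5, chr11:54247271-54249667, minus strand), the gene of GM-CSF, lay above the floor of 3 reads in 3 of 4 osteopontin libraries and in 1 of 4 null libraries. It stood at 0.393, 1.05, 0.857 and 0.0406 CPM in osteopontin 1, 2, A and B, against 0.691 CPM in null 2 and 0 in null 1, A and B. The reads behind these levels were 28, 71, 50 and 2 with osteopontin and 44 in null 2. A count of 0 allows up to 3 reads, that is 0.0522, 0.0420 and 0.0458 CPM in null 1, A and B. Osteopontin B lay under its own floor of 0.0611 CPM. The groups overlapped because null 2 lay above osteopontin 1 and B. The log2 fold change of 1.75 had a 95% interval of -2.14 to 5.63 (SE 1.83, edgeR adjusted p = 1.00; voom unadjusted p = 0.0539), so the spread between these libraries left room for a large rise or a large fall. Null 2 alone set the null level: without it the null group holds 0 reads and the fitted fold change has no defined size.

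**Figure D2:**
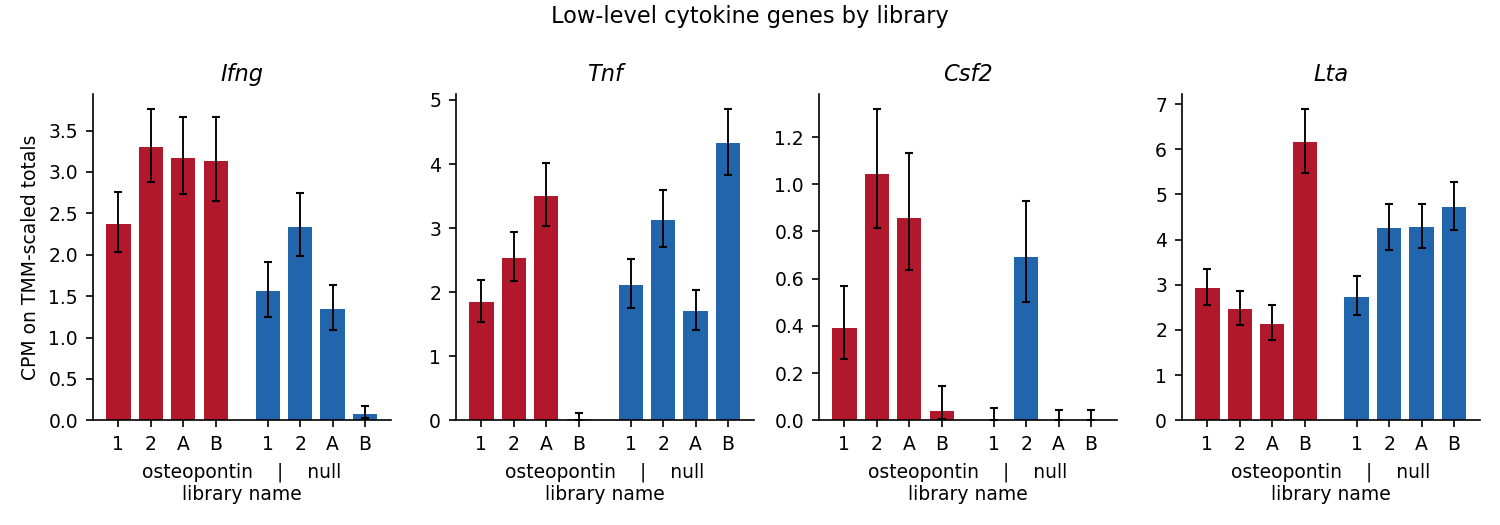
CPM on TMM-scaled totals of Ifng, Tnf, Csf2 and Lta in osteopontin libraries (red, left) and null libraries (blue, right) named 1, 2, A and B; bars give the level and whiskers the exact Poisson 95% interval or, for a library with 0 reads, the floor of 3 reads. Ifng bars are at 2.37 to 3.30 CPM with osteopontin and 0.0767 to 2.34 CPM in null libraries, and the bars of Tnf, Csf2 and Lta interleave.

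Lta and Ltb encode lymphotoxin alpha, a soluble ligand of the TNF receptors, and lymphotoxin beta, which joins it at the cell surface to bind the lymphotoxin beta receptor. They flank Tnf within 10913 bases (chr17:35194439-35205351), yet their levels were far apart. Lta (ENSMUSG00000024402.5) stood at 2.93, 2.46, 2.14 and 6.16 CPM in osteopontin 1, 2, A and B, against 2.74, 4.26, 4.28 and 4.72 CPM in the null libraries. Osteopontin B, the lowest library for Tnf, was the highest for Lta, and the other 3 osteopontin libraries lay at or near the bottom. The Lta log2 fold change was -0.23 (SE 0.42, 95% interval -1.11 to 0.66, edgeR adjusted p = 1.00). Ltb (ENSMUSG00000024399.5) stood at 473.4, 462.6, 445.8 and 448.0 CPM in osteopontin 1, 2, A and B, against 472.8, 462.7, 449.5 and 554.4 CPM in the null libraries. Null B was the highest and the other 7 lay close together, within 445.8 to 473.4 CPM. The Ltb log2 fold change was -0.08 (SE 0.07, 95% interval -0.23 to 0.06, edgeR adjusted p = 1.00), an interval that leaves out any rise above 1.04-fold and any fall below 0.853 of the null level. A form of Ltb with a retained intron held 9.31% ± 1.11 of its reads with osteopontin and 8.03% ± 1.10 in null libraries (SD, n = 4 each).

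As TPM, the receptor chain genes lay below Ltb and Stat4 and above the other 4 cytokine genes. Il12rb2 (ENSMUSG00000018341.12, chr6:67291318-67376188, minus strand), whose product is the chain of the IL-12 receptor that binds STAT4, stood at 28.7, 29.5, 21.4 and 29.8 CPM in osteopontin 1, 2, A and B, against 27.1, 24.5, 21.7 and 24.0 CPM in the null libraries. Osteopontin 1, 2 and B were the 3 highest of the 8, and osteopontin A was the lowest. The log2 fold change was 0.17 (SE 0.14, 95% interval -0.13 to 0.47, edgeR adjusted p = 1.00). Reads were divided between a form of 874 codons and a form of 540 codons whose start site lies 36494 bases downstream and whose coding region ends at the same base. The shorter form held 32.7%, 26.1%, 35.8% and 54.4% of the reads in osteopontin 1, 2, A and B, against 23.9%, 34.4%, 35.7% and 45.2% in the null libraries. The B library had the largest share of the shorter form in each group.

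Il18r1 and Il18rap encode the ligand-binding and the accessory chain of the IL-18 receptor and lie 14507 bases apart on the plus strand (chr1:40465552-40551705). Il18r1 (ENSMUSG00000026070.15) stood at 52.3, 64.3, 84.1 and 54.3 CPM in osteopontin 1, 2, A and B, against 59.4, 49.0, 62.5 and 49.8 CPM in the null libraries. Osteopontin A and 2 were the 2 highest, and osteopontin 1 and B lay inside the null range. The Il18r1 log2 fold change was 0.21 (SE 0.14, 95% interval -0.10 to 0.51, edgeR adjusted p = 1.00). Il18rap (ENSMUSG00000026068.11) stood at 45.7, 50.1, 67.6 and 31.9 CPM in osteopontin 1, 2, A and B, against 51.1, 42.1, 51.8 and 51.9 CPM in the null libraries. Osteopontin A was the highest and osteopontin B the lowest of the 8, so the null range lay inside the osteopontin range. The Il18rap log2 fold change was -0.01 (SE 0.18, 95% interval -0.42 to 0.39, edgeR adjusted p = 1.00), and its sign turned in 10 of 20 other settings. Forms of Il18r1 with a shorter coding region (372 or 267 codons, against 537) held 17.7% ± 3.65 of its reads with osteopontin and 14.1% ± 4.11 in null libraries, and retained-intron forms of Il18rap held 17.9% ± 6.93 with osteopontin and 15.3% ± 5.92 in null libraries (SD, n = 4 each).

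Stat4 (ENSMUSG00000062939.11, chr1:51987148-52107189, plus strand), the gene of the transcription factor that IL-12 activates, varied little between libraries. It stood at 207.4, 219.7, 228.5 and 219.3 CPM in osteopontin 1, 2, A and B, against 213.1, 218.8, 198.6 and 193.1 CPM in the null libraries. The 3 highest libraries were osteopontin ones and the 2 lowest were null A and B, with osteopontin 1 below null 1 and 2. The log2 fold change was 0.09 (SE 0.06, 95% interval -0.05 to 0.22, edgeR adjusted p = 1.00), so that a rise above 1.17-fold lay outside the interval.

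**Figure D3:**
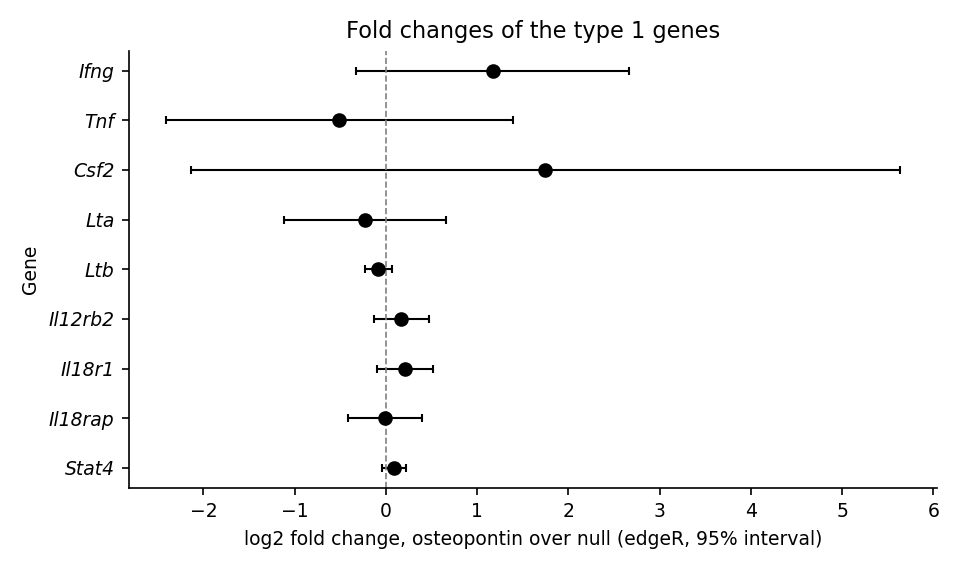
Log2 fold change of each of the 9 genes, osteopontin over null, from edgeR's quasi-likelihood test, with 95% intervals as whiskers and a dashed line at 0. Every interval crosses 0, and the widths run from that of Stat4 (-0.05 to 0.22) to that of Csf2 (-2.14 to 5.63).

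Most Stat4 reads were assigned to a pair of transcripts whose start sites lie 21095 bases apart and whose coding regions, of 748 codons, are identical. The 250 bases upstream of each site are shown because the shares of the sites differed widely between the B libraries (RefSeq, GRCm38.p6, upstream site first), with capitals for matches to GGAAA on either strand.
Stat4 (chr1:51986898-51987147, plus strand): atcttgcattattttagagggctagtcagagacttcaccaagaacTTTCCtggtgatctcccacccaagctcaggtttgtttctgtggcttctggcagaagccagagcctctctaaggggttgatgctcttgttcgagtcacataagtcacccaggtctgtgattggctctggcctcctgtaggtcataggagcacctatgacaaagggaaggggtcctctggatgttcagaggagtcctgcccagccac
Stat4 (chr1:52007990-52008239, plus strand): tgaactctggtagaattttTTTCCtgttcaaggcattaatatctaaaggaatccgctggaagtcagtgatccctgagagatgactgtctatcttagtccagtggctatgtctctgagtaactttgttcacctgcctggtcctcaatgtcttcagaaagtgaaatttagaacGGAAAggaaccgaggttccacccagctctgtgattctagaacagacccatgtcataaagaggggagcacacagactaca
The upstream window holds 1 match and the downstream window 2, and neither holds TATAAA or TTCNNNGAA. The transcript from the upstream site (ENSMUST00000168302.7) held 58.2%, 48.3%, 57.5% and 85.5% of the Stat4 reads in osteopontin 1, 2, A and B, against 50.6%, 51.5%, 58.9% and 31.1% in the null libraries. The one from the downstream site (ENSMUST00000027277.6) held 40.0%, 50.1%, 37.9% and 13.9% with osteopontin and 47.8%, 46.8%, 39.2% and 68.0% in null libraries. In libraries 1, 2 and A of either group the shares of the sites were similar, and the B libraries lay at opposite ends. The transcript log2 fold changes were 0.43 (SE 0.24, 95% interval -0.13 to 0.99) for the upstream and -0.43 (SE 0.35, 95% interval -1.23 to 0.37) for the downstream site, both with an edgeR adjusted p = 1.00. Without both B libraries, a comparison added after these shares were seen, they were 0.06 and -0.04. Across the 25 annotated transcripts of the 9 genes, 23 were tested, and edgeR called 0 of them, against 0% of all 50650 transcripts tested. At an unadjusted p under 0.05 there were 0 of the 23, against 1.98% of all transcripts.

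**Figure D4:**
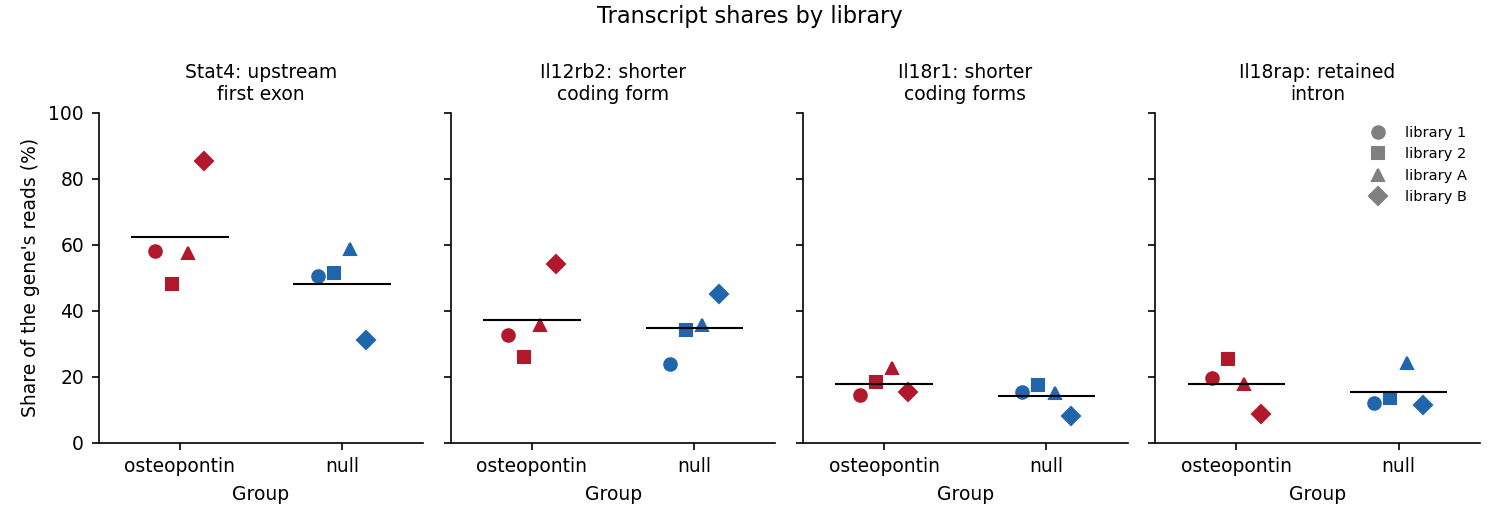
Share of a gene's reads, in percent, on the Stat4 transcript from the upstream site, the shorter coding form of Il12rb2, the shorter coding forms of Il18r1 and the retained-intron forms of Il18rap, in osteopontin (left) and null (right) libraries; lines give group means and shapes the library names. The Stat4 share is 85.5% in osteopontin B and 31.1% in null B, and 48.3% to 58.9% in the other 6 libraries.

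The spread between libraries differed by gene and group. In the osteopontin group the coefficient of variation ran from 2.83% for Ltb and 3.95% for Stat4 to 74.4% for Tnf and 77.8% for Csf2. In the null group it ran from 5.86% for Stat4 to 70.6% for Ifng and 200% for Csf2. Counting alone would give 8.87% for Tnf and 16.3% for Csf2 with osteopontin and 10.8% for Ifng and 30.2% for Csf2 in null libraries, so the spread of these genes was beyond that of counting. The same held for all 9 genes in both groups: Il18rap, for one, had 30.2% with osteopontin, against 1.81% from counting. Among the 36 pairs of the 9 genes, no correlation over the 8 libraries passed after adjustment. The pair with the smallest p was Ifng and Stat4 (Pearson r = 0.81, Spearman rho = 0.90, exact permutation p = 0.0031 and 0.00456, adjusted p = 0.112 and 0.164, two-sided). It had r = 0.71 with each group centred on its own mean and r = 0.60 without null A and B, the libraries farthest from the median.

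Genes of like pattern were sought over the 8 libraries among the 9673 or 9674 genes of at least 5 CPM, as a description only, since with 8 libraries and B libraries that stand apart many genes reach a high r. Closest to Ifng were Pdxp and Ighmbp2 (r = 0.98 each). Closest to Tnf were Chd7 and Dennd5a (r = 0.98 each), and to Lta Tgm2 (0.97) and Mapkapk5 (0.96). Ltb was most like Kif3b (0.99) and Cdc25b (0.98), Csf2 like Txnip (0.97) and Trip4 (0.96), and Il12rb2 like Ddt and Peak1 (0.96 each). Il18r1 was most like Sirt2 (0.95) and Fam175a (0.94), Il18rap like Mkks (0.96) and Oas3 (0.95), and Stat4 like Gpam and Stat5a (0.94 each).

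Most other receptor and signalling genes of the IL-12 and IL-18 pathways were detected in both groups, and 0 of 17 tested partner genes passed the test. Il12rb1, the other chain of the IL-12 receptor, stood at 73.9 ± 10.4 CPM with osteopontin and 72.8 ± 9.83 CPM in null libraries (SD, n = 4 each, here and below). The receptor kinase genes Jak2 and Tyk2 stood at 319.9 ± 4.12 and 175.6 ± 18.5 CPM with osteopontin and at 325.7 ± 15.1 and 182.2 ± 11.2 CPM in null libraries. The IL-18 adaptor and kinase genes Myd88 and Irak4 stood at 65.3 ± 4.30 and 45.4 ± 2.27 CPM with osteopontin and at 69.5 ± 5.28 and 48.2 ± 3.35 CPM in null libraries. The ligands themselves were scarce. Il18 stood at 0.284 ± 0.410 CPM with osteopontin and 0.950 ± 1.20 CPM in null libraries. Il12a stood at 0.681 ± 0.644 CPM with osteopontin and 1.41 ± 2.04 CPM in null libraries, and Il12b, which was too low to be tested, at 0.0456 ± 0.0913 CPM with osteopontin and 0.361 ± 0.459 CPM in null libraries. Il18bp, which encodes a soluble decoy for IL-18, stood at 3.50 ± 0.744 CPM with osteopontin and 2.87 ± 1.26 CPM in null libraries. Of the 17 partners 6 were fitted higher and 11 lower (median log2 fold change -0.03). The one with the smallest p was Il1rl1, the IL-33 receptor gene, at 1.53 ± 0.678 CPM with osteopontin and 5.10 ± 3.51 CPM in null libraries (log2 fold change -1.74, SE 0.54, edgeR adjusted p = 1.00), and its groups overlapped.

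Transcription factors of the type 1 program and targets of interferon-gamma gave 0 calls among 10 and 21 tested genes. Tbx21, which encodes T-bet, stood at 46.4, 42.0, 34.3 and 17.3 CPM in osteopontin 1, 2, A and B, against 37.5, 51.8, 31.4 and 31.2 CPM in the null libraries, and Eomes at 3.89 ± 0.498 CPM with osteopontin and 3.93 ± 1.32 CPM in null libraries. Osteopontin B was the lowest library for Tbx21, Il18rap and Tnf. It was also the lowest for the summed markers of natural killer and group 1 innate lymphoid cells (560.7 CPM, of which Gzma was 307.6 CPM). Not every marker was low there: Fcer1g stood at 117.0 CPM, against 94.6 to 125.0 CPM in the other osteopontin libraries. Null B had the lowest sum (693.7 CPM, of which Gzma was 416.3 CPM) and Tbx21 of its group. There too the markers were mixed: Ncr1 stood at 3.17 CPM, against 1.19 to 2.56 CPM in the other null libraries. Null B also had the highest Tnf of the 8 libraries (4.32 CPM) and the highest Il18rap of the null libraries (51.9 CPM). The 9 B cell markers summed to 326.6 CPM in osteopontin B and 940.0 CPM in null B, the lowest and highest of the 8 libraries. Elsewhere they summed to 583.8 to 879.4 CPM, and osteopontin 1, with 879.4 CPM, had Tnf at 1.84 CPM. Whether natural killer cells, group 1 innate lymphoid cells or B cells have a part in these levels was not tested. Of the 10 factors 3 were fitted higher and 7 lower (median -0.02). The receptor genes Ifngr1 and Ifngr2 stood at 405.0 ± 45.2 and 21.8 ± 5.55 CPM with osteopontin and at 417.6 ± 25.5 and 24.8 ± 2.49 CPM in null libraries. The interferon-induced chemokine genes Cxcl9 and Cxcl10 were low, at 0.168 ± 0.131 and 4.50 ± 0.981 CPM with osteopontin and 0.264 ± 0.250 and 4.29 ± 2.29 CPM in null libraries. Of the 21 receptor and target genes 5 were fitted higher and 16 lower (median -0.12), while Ifng itself was fitted higher. The one with the smallest p was Psmb8, an immunoproteasome subunit, at 196.1 ± 13.3 CPM with osteopontin and 221.2 ± 10.6 CPM in null libraries (log2 fold change -0.17, edgeR adjusted p = 1.00).

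Receptors for the TNF family ligands were expressed in both groups, and 0 of the 19 tested genes of that list passed the test, with 10 fitted higher and 9 lower. The TNF receptor genes Tnfrsf1a and Tnfrsf1b stood at 51.6 ± 5.50 and 266.4 ± 10.2 CPM with osteopontin and at 51.2 ± 6.17 and 276.4 ± 14.6 CPM in null libraries. Ltbr, the lymphotoxin beta receptor gene, was low, at 3.61 ± 1.78 CPM with osteopontin and 2.70 ± 0.654 CPM in null libraries, and Tnfrsf14, whose product binds lymphotoxin alpha and LIGHT, stood at 46.7 ± 1.77 CPM with osteopontin and 48.0 ± 5.99 CPM in null libraries. The gene with the smallest p was Map3k14, the kinase of the non-canonical NF-kB pathway, at 73.9 ± 10.1 CPM with osteopontin and 89.4 ± 9.42 CPM in null libraries (log2 fold change -0.28, edgeR adjusted p = 1.00). For GM-CSF, the receptor genes Csf2ra and Csf2rb stood at 20.3 ± 4.35 and 82.5 ± 39.0 CPM with osteopontin and at 21.7 ± 2.83 and 97.5 ± 30.7 CPM in null libraries. The summed markers of macrophages and dendritic cells, which carry this receptor, ran from 96.3 CPM in osteopontin B to 210.0 CPM in osteopontin 1 and from 102.5 CPM in null B to 198.2 CPM in null 1. Of the 6 tested genes of the GM-CSF receptor and STAT5 list 0 passed, 2 were fitted higher and 4 lower, and Stat5a had the smallest p (log2 fold change 0.20, edgeR adjusted p = 1.00).

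Among other effector cytokines 12 of 19 were tested and 0 passed, with 8 fitted higher and 4 lower and a median log2 fold change of 0.03. Tnfsf8, the CD30 ligand gene, had the smallest p, at 24.3 ± 5.84 CPM with osteopontin and 19.0 ± 0.602 CPM in null libraries (log2 fold change 0.35, edgeR adjusted p = 1.00). The 7 too low to be tested were Il3, Il5, Il13, Il17a, Il17f, Il21 and Il22. Genes whose proteins bind AU-rich elements or related stem-loops, such as those in Tnf and Csf2, had 6 of 11 fitted higher and 5 lower. Zfp36, which encodes tristetraprolin, a protein that speeds the decay of Tnf and Csf2 messages, stood at 84.5, 76.0, 83.1 and 83.7 CPM in osteopontin 1, 2, A and B, against 106.8, 94.1, 107.2 and 110.4 CPM in the null libraries. No osteopontin library reached the lowest null library. Zfp36 was named for the smallest p of its list, and the groups did not overlap for 3.47% of all genes in either direction. The log2 fold change was -0.35 (SE 0.08, edgeR adjusted p = 1.00, and DESeq2 adjusted p = 0.0443, which is past the threshold). Zfp36l2, a relative of Zfp36 named here after its values were seen, was the opposite: it stood at 663.9 ± 36.7 CPM with osteopontin and 580.9 ± 27.3 CPM in null libraries without overlap (log2 fold change 0.19, edgeR adjusted p = 1.00). Immediate-early genes, which follow lymphocyte stimulation within minutes, had 0 of 10 fitted higher and 10 lower, with a median of -0.55, and 0 passed by edgeR over all 8 libraries. Of all genes tested 50.1% were fitted higher, with a median of 0.00. The 10 genes may vary together, so they do not count as 10 separate observations. Atf3 had the smallest p, at 1.42, 1.07, 1.30 and 5.02 CPM in osteopontin 1, 2, A and B, against 9.01, 6.41, 8.68 and 5.50 CPM in the null libraries. Its groups did not overlap, although osteopontin B lay near null B (log2 fold change -1.75, SE 0.47, edgeR adjusted p = 1.00). Without osteopontin B, edgeR called Fos (log2 fold change -6.44, adjusted p = 3.56e-05), Atf3 (-2.55, 0.00537) and Jun (-1.13, 0.00597) lower, of which Fos and Jun were chosen after their values were seen. At that setting 0.177% of all 19815 genes tested were called lower, and leaving out any other single library called 0 genes of the lists. Fos stood at 0.225, 0.427, 0.103 and 18.9 CPM in osteopontin 1, 2, A and B, against 29.4, 19.1, 25.4 and 15.2 CPM in the null libraries, and Fosb at 1.28, 2.37, 1.44 and 13.1 CPM with osteopontin, against 35.7, 12.2, 33.5 and 8.58 CPM in the null libraries. Fos, Fosb and Atf3 were thus highest in osteopontin B within that group and in null 1 and A within the other, which are also the libraries with the highest summed fibroblast markers of their groups (24.8 CPM in osteopontin B, and 304.2 and 162.9 CPM in null 1 and A). Between the groups the orders differed. Null 2 and B, with fibroblast sums of 10.8 and 6.51 CPM, had Fos at 19.1 and 15.2 CPM. Osteopontin 1, 2 and A, with sums of 6.88 to 7.64 CPM, had Fos at 0.103 to 0.427 CPM. The 7 endothelial markers summed to 127.8 CPM in osteopontin B and to 128.8 and 132.4 CPM in null 2 and B. Elsewhere they summed to 58.6 to 83.7 CPM. Of these, Cdh5 stood at 15.8, 16.4 and 14.7 CPM in osteopontin B, null 2 and null B, and at 0.177 to 2.19 CPM elsewhere. Null 1 and A, with endothelial sums of 83.1 and 77.8 CPM, had Fos at 29.4 and 25.4 CPM. The part of fibroblasts or endothelial cells in the result was not tested. Without null 1 and A, and with osteopontin B kept, the log2 fold change was -1.44 for Atf3 and -1.81 for Fos. Over all 8 libraries these were -1.75 and -2.19. EdgeR called 0 genes of the lists at that setting, as it did over all 8 libraries, so this count cannot speak to null 1 and A. Over all 8 lists 106 of 117 genes were tested, 40 were fitted higher and 66 lower, and 11 had an unadjusted p under 0.05, 2 higher and 9 lower, against 1.85% of all genes higher and 2.08% lower. The lists were chosen with earlier results of these data known, so these counts cannot be read as an enrichment.

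**Figure D5:**
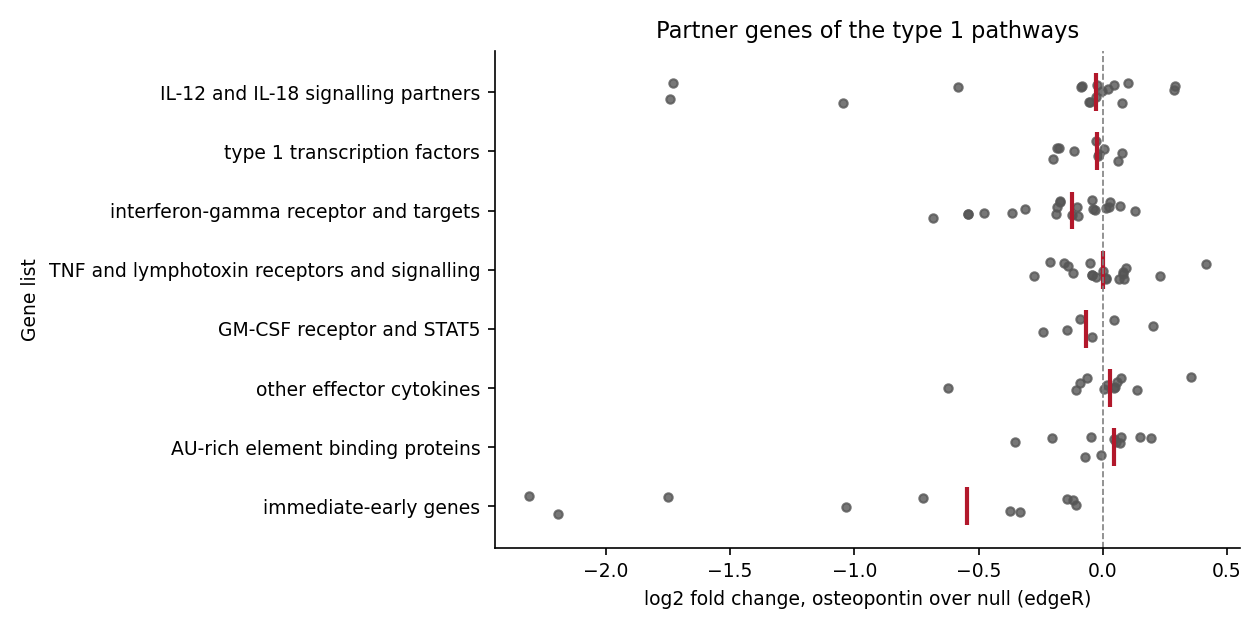
Log2 fold change, osteopontin over null, of each tested gene of the 8 lists of partner genes (grey points, spread vertically only for legibility), with the median of each list as a red bar and a dashed line at 0. Medians lie between -0.12 and 0.04 for 7 lists and at -0.55 for the immediate-early genes, and no point passed the edgeR test.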

How the data were processed

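RNA sequencing tables were deposited for 8 libraries, 4 with osteopontin and 4 null, made from micro-kit RNA by a stranded Illumina protocol, per the labels' protocols. The submitters' processing notes name Salmon; neither its version nor the transcript set is given in the sources used here. Per the file headers, the authors deposited estimated counts (reads assigned per transcript, not always whole) and TPM for 133618 transcripts of 52661 genes in every library. Of the gene identifiers 95.7% and of the transcripts 98.2% (identifier, version and length) matched GENCODE M21 on GRCm38, as did all 25 transcripts of the 9 genes, and positions are from there. Reads of near-identical transcripts are divided by estimation, so shares of transcripts are uncertain.

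Estimated counts were summed per gene and rounded. Genes passing filterByExpr (minimum count 10) were fitted with edgeR 4.0.16 (TMM, robust quasi-likelihood F test, two-sided, group only), adjusted by Benjamini-Hochberg over all 18631 genes, and called at an adjusted p under 0.05. The code was tested on simulated data, with a spread typical of each gene's level. There the gene test recovered 52% of 2-fold and 90% of 8-fold changes. The transcript test recovered 4% of 2-fold and 46% of 8-fold changes. A count of 0 calls therefore does not show that levels were unchanged. Levels are CPM on TMM-scaled totals. Correlations used log2 CPM with a prior count of 2. Alternatives used DESeq2 1.42.0, limma 3.58.1 (voom, and log2 of TPM plus 0.1 or 1), the deposited effective lengths as an offset, other scaling, filters and fewer libraries.

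The members and lists were chosen with earlier results of these data known. Each gene list contributed its gene with the smallest p, beside partners named by role, and each member its 2 most similar genes of at least 5 CPM. The result of 1 gene under this rule is not reported here. Transcripts were named at 5% or more of a gene's reads. Proteins are not shown.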

Additional observations from a re-analysis of the deposited data

Results flagged for a closer look

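In 11 of 66 groups of 4 library values, 1 library lay far from the other 3 by Dixon's criterion, and chance gives about 1 in 20 groups if they are independent, which these are not: the Tnf shares are complements of each other, so that 4 of the 11 are a single pair of libraries counted on both forms. Among gene levels these were Csf2 in null 2 (0.691 CPM, with 0 in the other null libraries), Il12rb2 in osteopontin A (21.4 CPM, with 28.7 to 29.8 CPM in the other osteopontin libraries) and Il18rap in null 2 (42.1 CPM, with 51.1 to 51.9 CPM in the other null libraries). Among transcript shares, the Tnf form of 235 codons held 0% and the form of 219 codons 100% in osteopontin B and in null 1, where the other libraries had 83.5% to 100% and 88.4% to 100% on the longer form. The osteopontin B share rests on 1 read. An Il18rap form with a retained intron held 14.9% in null A and 4.72% to 6.00% in the other null libraries. Summed enterocyte markers were 88.3 CPM in osteopontin B and 40.2 to 44.6 CPM in the other osteopontin libraries, and 80.3 CPM in null B and 43.0 to 48.0 CPM in the other null libraries. Epcam, at 37.8 to 48.3 CPM in every library, was most of these sums outside the B libraries. Summed fibroblast markers were 24.8 CPM in osteopontin B and 6.88 to 7.64 CPM in the other osteopontin libraries.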

How the results depend on the processing

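None of the 9 genes was called by any of 20 other settings, and none of their transcripts by any of 12. Over all genes the count of calls, 0 in the edgeR result, was 41 with DESeq2 (12 higher, 29 lower), 4 with no filter on low counts (3 and 1), 1 with limma on TPM and a pseudocount of 1 (lower), 49 without both B libraries (1 and 48), and 0 to 37 with 1 library left out: 37 without osteopontin B (2 and 35), and 1 each without osteopontin 2, null 1 or null 2. Of the partner genes, 0 were called over all 8 libraries, 1 with DESeq2 (Zfp36), 4 lower without both B libraries (Fos, Atf3, Egr1 and Jun, with Atf3 at -2.67) and 0 to 3 with 1 library left out, 3 of them without osteopontin B (Fos, Atf3 and Jun, with Atf3 at -2.55). Atf3, at -1.75, was weakest at -0.74 with an effective-length offset and at -0.99 and -0.75 with TPM at pseudocounts of 0.1 and 1. The cause was not tested. Signs turned for 2 of the 9 genes. The Tnf log2 fold change was 0.18 without both B libraries and -1.37 to -0.11 in the other 19 settings. That of Il18rap, -0.01, was 0.10 with an effective-length offset, 0.076 with TPM at either pseudocount, 0.17 without both B libraries, 0.053 without null 1 and A, and from -0.21 to 0.14 with 1 library left out (0.016 and 0.143 without osteopontin 1 or B, 0.0018, 0.012 and 0.012 without null 1, A or B). Ifng ranged from 0.75 (without both B libraries) to 1.91, and Stat4 from 0.06 to 0.16. The shared names do not establish pairs: deviations of same-named libraries correlated at 0.0437 to 0.123, over 0.1 for 1 of 4 names, although all 4 osteopontin libraries correlated best with the null library of their own name, a hint from the data and not the design. With the name as a replicate block the calls stayed at 0 over all genes, the 9 genes, the partner genes and the transcripts, and the log2 fold change was 1.61 for Ifng, -0.83 for Tnf and 4.94 for Csf2. The spread between libraries exceeded counting error for all 9 genes in both groups. Depth limits the values of Ifng, Tnf and Csf2 at a few reads (Csf2 in osteopontin B and null 1, A and B, Tnf in osteopontin B, Ifng in null B). It also limits the separation of osteopontin 1 from null 2 for Ifng.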
